A study of Mus musculus with 5 samples.

Results

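Olfactory sensory neurons (OSNs) that transcribe the odorant receptor gene *Olfr151* (*M71*) were examined for the genes of their voltage-gated sodium and calcium channels. The genes were chosen by name alone, as the pore-forming and auxiliary subunits of the Scn, Cacna1, Cacna2d, Cacnb and Cacng families. They number 40 of the 55411 genes in the count tables, with 10 Nav alpha, 4 Nav beta, 10 Cav alpha1, 4 alpha2delta, 4 Cav beta and 8 gamma genes. Male mice 7 weeks old, homozygous for the knock-in allele Olfr151tm26Mom and backcrossed to C57BL/6J, were kept for 5 h with 5% acetophenone in DMSO, an agonist of the receptor, or with DMSO alone. Both conditions thus carry the same allele, in which an IRES-tau-GFP sequence follows the receptor gene and marks every cell that transcribes it. GFP-positive, live, nucleated cells of the main olfactory epithelium were sorted, cells of 4 mice were combined into a pool, and the RNA of each pool was sequenced. The labels give 200 cells per pool in one field and 400 in another, and the methods of the paper give 200 for pools of *Olfr151* neurons. Analysed here were 3 control pools (DMSO alone, numbers 1, 2 and 3) and 2 exposed pools (acetophenone, numbers 1 and 3).

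Voltage-gated sodium channels open when a membrane depolarises and carry the rising phase of the action potential. A single alpha subunit forms the pore, and beta subunits adjust its gating and its place in the membrane. Voltage-gated calcium channels turn depolarisation into calcium entry, at the axon terminal above all, where calcium triggers transmitter release. Their alpha1 subunit forms the pore. In many of them, L-type and N-type channels included, intracellular beta subunits and extracellular alpha2delta subunits bring the pore to the surface and set its kinetics. In OSNs, odorants open cyclic nucleotide-gated and chloride channels in the cilia, and voltage-gated channels then carry the signal along the axon to the olfactory bulb. Nav1.7, the product of *Scn9a*, is known to be needed for transmitter release from OSN axons.

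The libraries held between 42780403 and 49527380 counts, spike-ins included, so that 3 counts correspond to 0.0606 to 0.0701 CPM, the count scaled to the library total. Over log2 CPM, libraries of the same condition correlated with r from 0.871 to 0.925, and libraries of different conditions with r from 0.767 to 0.874 (across genes, which are not independent replicates). All 8 markers of mature OSNs passed the count threshold, and their summed level lay between 58150 and 62550 CPM in control pools and between 50138 and 50921 CPM in exposed pools. The summed level of the 4 immature OSN markers was 246 to 282 CPM and 283 to 353 CPM. Markers of other cells were low beside those of mature OSNs. Among these, the 2 red blood cell markers had the widest range in CPM. They summed to 290, 94.3 and 10.6 CPM in control pools and 12.1 and 5.26 CPM in exposed pools. The 3 microvillar markers varied more relative to their level, at 0.0687, 12.4 and 26.7 CPM and then 4.69 and 3.05 CPM. The 7 myeloid markers summed to 14.6 to 126 CPM in control pools and 64.6 to 140 CPM in exposed pools, and the 4 sustentacular markers to 68.6 to 170 CPM and 80.6 to 225 CPM.

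Levels were compared between genes as TPM, in which counts are divided by the exon length of the gene before each library is scaled to the same total. At rest, 4 channel genes stood well above the others. *Cacnb3*, which encodes a calcium channel beta subunit, was the highest at 949 ± 75.3 TPM (SD, n = 3 control pools), and ranked 106 among all genes. *Scn3b* and *Scn4b*, which encode the sodium channel subunits beta3 and beta4, followed at 420 ± 85.3 TPM and 393 ± 64.4 TPM. *Scn9a* was next at 281 ± 53.1 TPM.

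Only 1 alpha subunit of each family exceeded 100 TPM in the mean of the control pools. For sodium it was *Scn9a* and for calcium *Cacna1h*, which encodes the T-type channel Cav3.2, a channel that opens near the resting potential, at 102 ± 21.5 TPM. Below this lay *Cacnb2* at 31.3 ± 5.63 TPM and *Cacna2d1* at 20.0 ± 6.16 TPM, 2 auxiliary subunits of calcium channels. Further tested genes lay between 3.77 and 8.62 TPM. They were, in falling order, *Cacna1b* (N-type Cav2.2), *Scn3a* (Nav1.3), *Scn8a* (Nav1.6), *Cacnb1*, *Cacna1d* (L-type Cav1.3), *Scn2a* (Nav1.2) and *Cacnb4*.

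Not every step in this order exceeded the spread between pools. The control pools of *Cacnb3* and *Scn3b* did not overlap, nor did those of *Scn9a* and *Cacna1h*, *Cacna1h* and *Cacnb2*, *Cacnb2* and *Cacna2d1*, or *Cacna2d1* and *Cacna1b*. For the other neighbours given here the ranges overlapped, *Scn3b*, *Scn4b* and *Scn9a* included, and the genes from *Cacna1b* down to *Cacnb4* form a run without a gap. Compared within pools, *Scn3b* was above *Scn4b* and *Scn4b* above *Scn9a* in all 3 control pools. The pools were closest to each other for *Scn2a* and *Scn8a*, whose highest control pool was 1.11 and 1.14 times the lowest. They were furthest apart for *Cacnb1*, at 3.93 times. This spread follows from control pool 1, where *Cacnb1* had 114 counts against 452 and 436 in the others.

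**Figure D1:**
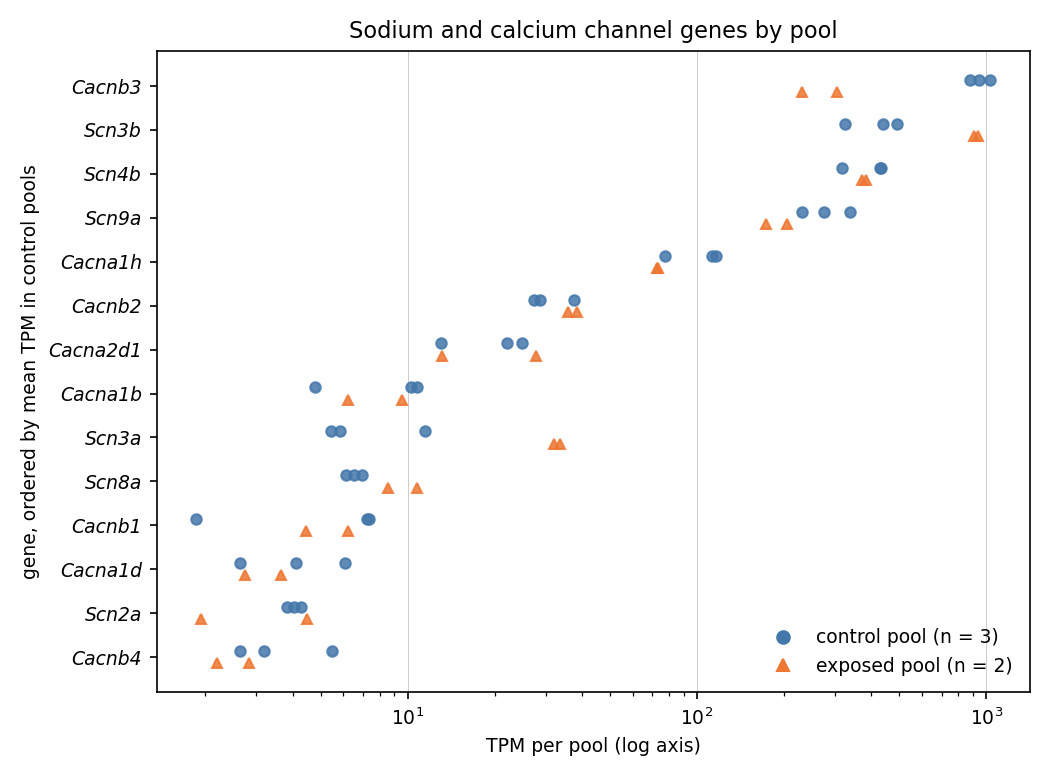
TPM of 14 channel genes that passed the count threshold, on a log axis, with 1 point per pool (circles, 3 control pools; triangles, 2 exposed pools) and the genes ordered by their mean in control pools. *Cacnb3* has the highest mean in control pools at 949 TPM, and its 2 exposed triangles lie at 231 and 304 TPM, while those of *Scn3b* lie at 903 and 933 TPM.

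Of the 40 channel genes, 25 did not reach the count threshold, set at 142 counts in all libraries of either condition. Among these, 11 had no count in any library. They were *Scn4a* (Nav1.4) and *Scn10a* (Nav1.8), *Cacna1s* (Cav1.1) and *Cacna1g* (Cav3.1), *Cacna2d2* and *Cacna2d4*, and the gamma genes *Cacng1*, *Cacng3*, *Cacng5*, *Cacng6* and *Cacng8*. A count of 0 allows up to 3 counts, or at most 0.0701 CPM in the shallowest library, and covers counting error only. A further 3 genes, *Cacna1i*, *Cacng2* and *Cacng7*, had at most 1 count in any library.

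A further 11 had more than 3 counts in some library. *Cacng4*, which encodes a gamma subunit of the kind that also escorts AMPA receptors, came closest, with 245, 108 and 73 counts in the controls and 97 and 74 after exposure. *Scn1a* (Nav1.1) had 1, 1 and 0 counts in the 3 controls, and 0 and 110 after exposure. *Cacna1c* (Cav1.2) had 0, 111 and 1, then 40 and 19, and *Cacna1f* (Cav1.4) 2, 37 and 111, then 60 and 30. While *Cacng4* was detected in all 5 pools, *Scn1a* had nearly all of its counts in a single pool and *Cacna1c* most of them in control pool 2. *Cacna1a*, which encodes the P/Q-type channel Cav2.1 that drives release at many central synapses, had 55, 3 and 7 counts in control pools and none in exposed pools. *Cacna1e* (Cav2.3), *Scn11a* (Nav1.9), *Scn2b*, *Cacna2d3* and *Scn7a* had at most 59, 55, 27, 11 and 4 counts. At this threshold, differences between conditions were not tested for any of these 25 genes. Some of them were tested with the 3 other filters described below, and none was called.

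Within each class, most of the level came from a single gene or a pair. Of the summed TPM of the Nav alpha genes, *Scn9a* made up 77.1%, 69.4% and 73.9% in control pools. *Cacna1h* made up 90.8%, 86.7% and 88.1% of the Cav alpha1 genes. The Nav beta genes were shared almost evenly, with *Scn3b* at 50.5%, 53.5% and 50.5% and *Scn4b* at nearly all of the rest. Among Cav beta genes *Cacnb3* stood at 96.5%, 95.3% and 96.0%. The alpha2delta genes were represented by *Cacna2d1* at 99.3% or more in every pool.

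The comparison of exposed with control pools asks how the channel genes differed after 5 h with an odorant that activates the sorted neurons. A gene was called at a Benjamini-Hochberg adjusted p under 0.1 over all 10036 features tested and an absolute log2 fold change above 0.5 in edgeR's quasi-likelihood test. *Scn3a* and *Scn3b*, an alpha and a beta subunit of sodium channels, rose, by 4.89-fold and 2.47-fold. *Cacnb3* fell and was 3.17-fold lower. These 3 are 20.0% of the 15 channel genes tested, whereas 5.27% of all features were called, 3.42% as higher and 1.85% as lower. In each of the 3 the pools did not overlap between conditions, but this was also so for 3 other channel genes, and the 6 of 15 (40.0%) equal the 40.0% over all features. In pooled RNA, fewer cells of a type and less RNA per cell cannot be told apart.

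The fold changes of the channel genes had no common direction. Their estimates were above 0 for 8 and below 0 for 7 genes, with a median log2 fold change of 0.07, against -0.03 over all features. *Cacnb1*, among those above 0, reached the count threshold only through the exposed pools, so its place in this split was partly fixed by the filter. The median size of the change, regardless of direction, was 0.40 on the log2 scale for the channel genes and 0.37 for all features. An unadjusted p under 0.05 was found for 6 of the 15 and for 1922 of the 10036 features.

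**Figure D2:**
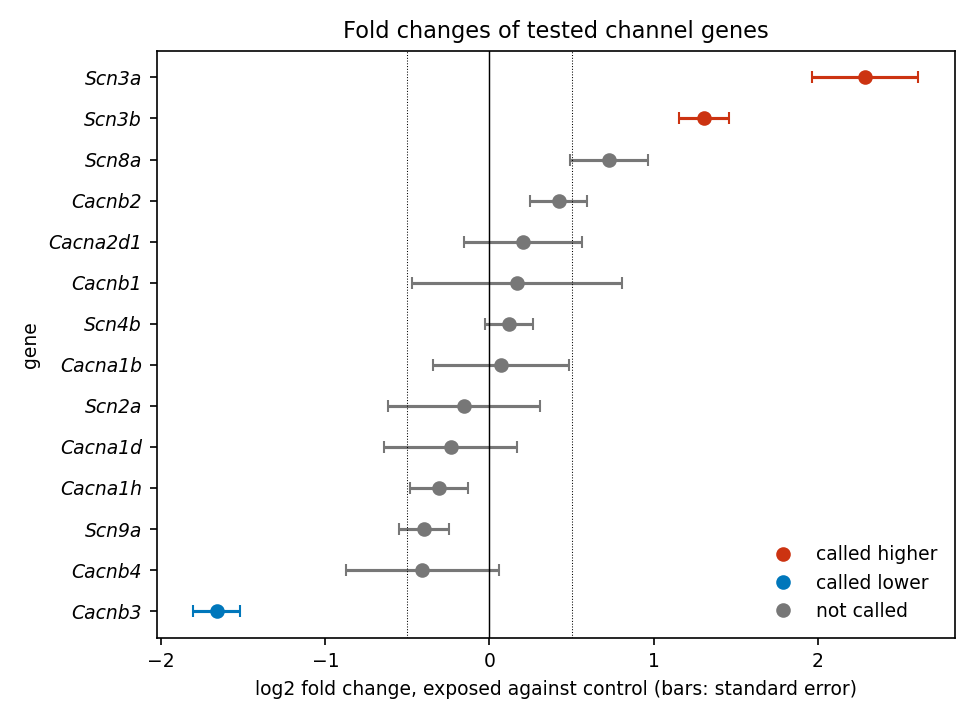
Log2 fold change of exposed against control pools for 14 tested channel genes, with bars of 1 standard error from edgeR's fit; dotted lines mark the call threshold of 0.5 in each direction. *Scn3a* (2.29) and *Scn3b* (1.31) are called higher and *Cacnb3* (-1.66) is called lower, while the other 11 genes drawn lie between -0.41 and 0.73 and are not called.

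*Cacnb3* (ENSMUSG00000003352, GRCm38 chr15:98630840-98644529, plus strand) had the smallest p-value among the 186 features called lower. It had 47530, 56079 and 50363 counts in control pools, or 1090, 1130 and 1080 CPM. The exposed pools had 13373 and 16153 counts, or 310 and 385 CPM. Both exposed pools thus lay far below a control group whose pools were nearly equal. The log2 fold change was -1.66 with a standard error of 0.14 (edgeR, adjusted p = 0.00397). In TPM, the level went from 949 ± 75.3 to 268 ± 51.6 (SD, n = 3 and n = 2 pools), and *Cacnb3* remained the highest calcium channel gene. No exon bases of *Cacnb3* are shared with another gene. The ERCC spike-ins made up 0.631%, 0.249% and 0.332% of the counts in control pools and 0.542% and 0.306% in exposed pools. Scaling by them gave a log2 fold change of -1.84 (SE 0.77), and the call was lost (edgeR, adjusted p = 0.456). This scaling moved the median log2 fold change of all features from -0.03 to -0.23, and relative to that median *Cacnb3* was at -1.61.

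RefSeq (GRCm38.p6) gives *Cacnb3* 2 start sites, and the 250 bases before each are shown because this gene had the smallest p-value of the channel genes. Capitals mark the GC box (GGGCGG on either strand), and all other bases are in lower case. The first window, at chr15:98632078-98632327, has 56.0% G and C and 2 CpG. The second, at chr15:98634517-98634766, has 70.4% G and C, 23 CpG and 3 GC boxes, and 51 of its bases fall in an exon of the non-coding transcript Cacnb3-204. The windows upstream of all genes had a median of 52.4% G and C and 6 CpG. The window before *Scn9a*, at chr2:66634963-66635212 on the minus strand, is given beside them as that of the leading sodium channel gene, and has 54.4% G and C and 5 CpG.
Cacnb3 first start: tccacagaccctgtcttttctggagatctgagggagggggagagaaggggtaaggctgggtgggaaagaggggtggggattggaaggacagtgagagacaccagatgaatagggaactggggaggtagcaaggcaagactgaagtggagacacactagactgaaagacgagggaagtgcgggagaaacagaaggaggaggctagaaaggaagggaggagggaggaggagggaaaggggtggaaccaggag
Cacnb3 second start: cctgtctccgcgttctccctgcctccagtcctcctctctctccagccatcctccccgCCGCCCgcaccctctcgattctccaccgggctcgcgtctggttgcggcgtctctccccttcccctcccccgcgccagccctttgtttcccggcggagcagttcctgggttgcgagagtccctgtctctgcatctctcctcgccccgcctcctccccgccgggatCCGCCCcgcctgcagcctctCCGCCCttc
Scn9a: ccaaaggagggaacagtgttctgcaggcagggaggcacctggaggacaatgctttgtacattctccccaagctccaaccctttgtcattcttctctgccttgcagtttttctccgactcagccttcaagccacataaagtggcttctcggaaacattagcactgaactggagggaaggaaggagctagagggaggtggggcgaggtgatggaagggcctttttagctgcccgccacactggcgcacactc

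No window of *Cacnb3* or *Scn9a* held the other motifs searched on both strands. These were the cyclic AMP response element TGACGTCA, the AP-1 motif TGANTCA, the EBF motif and the EGR motif GCGTGGGCG. Entries were found for 30 of the 40 channel genes, with 41 windows. The GC box occurred in 15 of these (36.6%) and in 32.7% of the 32851 windows of all genes. The AP-1 motif was found in 1 channel gene window (*Cacng5*) and in 6.75% of all windows, and the EGR motif in 1 (*Scn7a*) and in 0.536%. The cyclic AMP response element was in none of the 41 and in 1.55% of all, and the EBF motif in none and in 0.779%. A match describes only the letters of a window. *Scn3a*, *Scn3b*, *Cacna1h*, *Cacna1g*, *Cacna1a*, *Cacna2d4*, *Cacng1* and *Cacng4* were among the genes without an entry.

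None of the other Cav beta genes was called. *Cacnb2*, the next in level, had 112, 137 and 109 CPM in control pools and 159 and 160 CPM in exposed pools. Its pools did not overlap, but the log2 fold change of 0.42 (SE 0.17) did not pass (edgeR, adjusted p = 0.249). *Cacnb1* had 2.61, 9.11 and 9.39 CPM and then 9.43 and 6.39 CPM, and *Cacnb4* had 7.33, 13.4 and 8.23 CPM and then 6.57 and 8.01 CPM. Both overlapped between conditions (edgeR, adjusted p = 0.920 and 0.682). *Cacnb1* reached the count threshold only through the exposed pools.

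The summed level of the 4 Cav beta genes was 910, 1078 and 982 TPM in control pools and 275 and 350 TPM in exposed pools. The means were 990 ± 84.6 and 313 ± 52.5 TPM, a level 3.17-fold lower. Within this sum the share of *Cacnb3* went from 95.9% ± 0.592 to 85.4% ± 2.14, and *Cacnb2* made up 13.0% and 11.0% of the exposed pools against 2.92% to 3.50% of the control pools. The TPM ratio of *Cacnb3* to *Cacnb2* was 32.0, 27.2 and 32.9 in control pools and 6.44 and 7.92 in exposed pools. These sums and shares are descriptions and carry no test.

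The pore-forming calcium channel genes were not called. *Cacna1h* had 233, 310 and 317 CPM in control pools and 237 and 226 CPM in exposed pools, with a log2 fold change of -0.31 (SE 0.18, edgeR, adjusted p = 0.392). The exposed pools lay at the level of the lowest control pool. *Cacna1b*, whose N-type channel serves transmitter release, had 14.7, 29.4 and 29.4 CPM and then 31.8 and 19.6 CPM (log2 fold change 0.07, SE 0.41). *Cacna1d* had 12.4, 25.3 and 17.9 CPM and then 14.0 and 17.5 CPM (-0.24, SE 0.41). Control pool 1 was the lowest pool for both genes. *Cacna2d1*, which encodes the gabapentin-binding alpha2delta-1 subunit, had 50.0, 84.4 and 78.6 CPM and then 54.4 and 109 CPM (0.20, SE 0.36). None of these was called (edgeR, adjusted p = 0.953, 0.792 and 0.800). The *Cacnb3* to *Cacna1h* ratio of TPM was 11.4, 8.89 and 8.32 in control pools and 3.19 and 4.14 in exposed pools. This ratio compares RNA levels only, and whether the products of these genes act together was not tested.

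*Scn3b* (ENSMUSG00000049281, chr9:40269217-40291618, plus strand) had 24012, 36570 and 32069 counts in control pools, or 550, 737 and 691 CPM. It had 71142 and 67479 counts in exposed pools, or 1650 and 1610 CPM. The exposed pools were close to each other, and both lay far above the highest control pool. The log2 fold change was 1.31 (SE 0.15, edgeR, adjusted p = 0.00918). With 918 ± 21.0 TPM (SD, n = 2 pools) *Scn3b* was the highest channel gene of the exposed pools. The call was lost with ERCC scaling, where the log2 fold change was 1.03 with a larger standard error of 0.71.

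*Scn4b*, which encodes beta4, the subunit that contributes to resurgent sodium current in several neurons, was not called. It had 490, 584 and 618 CPM in control pools and 639 and 586 CPM in exposed pools, which overlap (log2 fold change 0.12, SE 0.15, edgeR, adjusted p = 0.703). Scaled by the ERCC spike-ins its estimate was -0.15. The TPM ratio of *Scn3b* to *Scn4b* was 1.02, 1.15 and 1.02 in control pools and 2.36 and 2.50 in exposed pools, a ratio within a library that does not depend on the scaling between libraries. The share of *Scn3b* in the Nav beta class went from 51.5% ± 1.74 to 70.8% ± 0.863. The summed Nav beta level was 645, 920 and 873 TPM in control pools and 1286 and 1306 TPM in exposed pools.

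*Scn3a* (ENSMUSG00000057182, chr2:65457118-65567627, minus strand) encodes Nav1.3, a channel that is abundant in embryonic neurons and is known to be induced again in injured sensory neurons. It had 1007, 1992 and 920 counts in control pools, or 23.1, 40.2 and 19.8 CPM, and 5870 and 5639 counts in exposed pools, or 136 and 134 CPM. Control pool 2 was the highest of its group, and both exposed pools were more than 3 times above it. The log2 fold change was 2.29 (SE 0.33, edgeR, adjusted p = 0.0176). Without exposed pool 1 the estimate was 2.28 and the call was lost (edgeR, adjusted p = 0.143), as it was with ERCC scaling at 1.97 (edgeR, adjusted p = 0.300). The level remained modest after exposure, at 32.7 ± 1.04 TPM against 189 ± 22.8 TPM for *Scn9a*.

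None of the other Nav alpha genes given here passed. *Scn9a* (ENSMUSG00000075316, chr2:66480080-66634962, minus strand) had 913, 1180 and 1010 CPM in control pools and 740 and 827 CPM in exposed pools. The exposed pools lay below all control pools, with a log2 fold change of -0.40 (SE 0.15, edgeR, adjusted p = 0.218). *Scn8a*, which encodes Nav1.6, the channel of nodes of Ranvier and of axon initial segments, had 29.9, 30.2 and 29.4 CPM and then 45.0 and 53.9 CPM. The control pools were nearly equal and the exposed pools lay above them, yet the log2 fold change of 0.73 (SE 0.24) did not pass in edgeR (adjusted p = 0.171). It did pass in DESeq2's Wald test (0.75, adjusted p = 0.0240), where 725 features were called higher and 768 lower. *Scn2a* had 17.0, 13.5 and 14.9 CPM and then 19.4 and 7.84 CPM, so that its exposed pools lay on either side of the control pools (-0.15, SE 0.46, edgeR, adjusted p = 0.891).

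The make-up of the Nav alpha class differed between the conditions accordingly. The share of *Scn3a* was 1.95%, 2.37% and 1.46% in control pools and 13.3% and 10.9% in exposed pools. *Scn9a* remained the leading gene, at 71.9% and 66.8% of the exposed pools, and its TPM was 5.41 and 6.13 times that of *Scn3a* there, against 39.4, 29.3 and 50.6 times in control pools. The summed Nav alpha level was 300, 486 and 372 TPM in control pools and 241 and 307 TPM in exposed pools, which overlap. Since *Scn3b* rose while *Scn9a* did not, the TPM ratio of *Scn3b* to *Scn9a* was 1.49 ± 0.101 in control pools (SD, n = 3) and 5.22 and 4.54 in exposed pools.

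**Figure D3:**
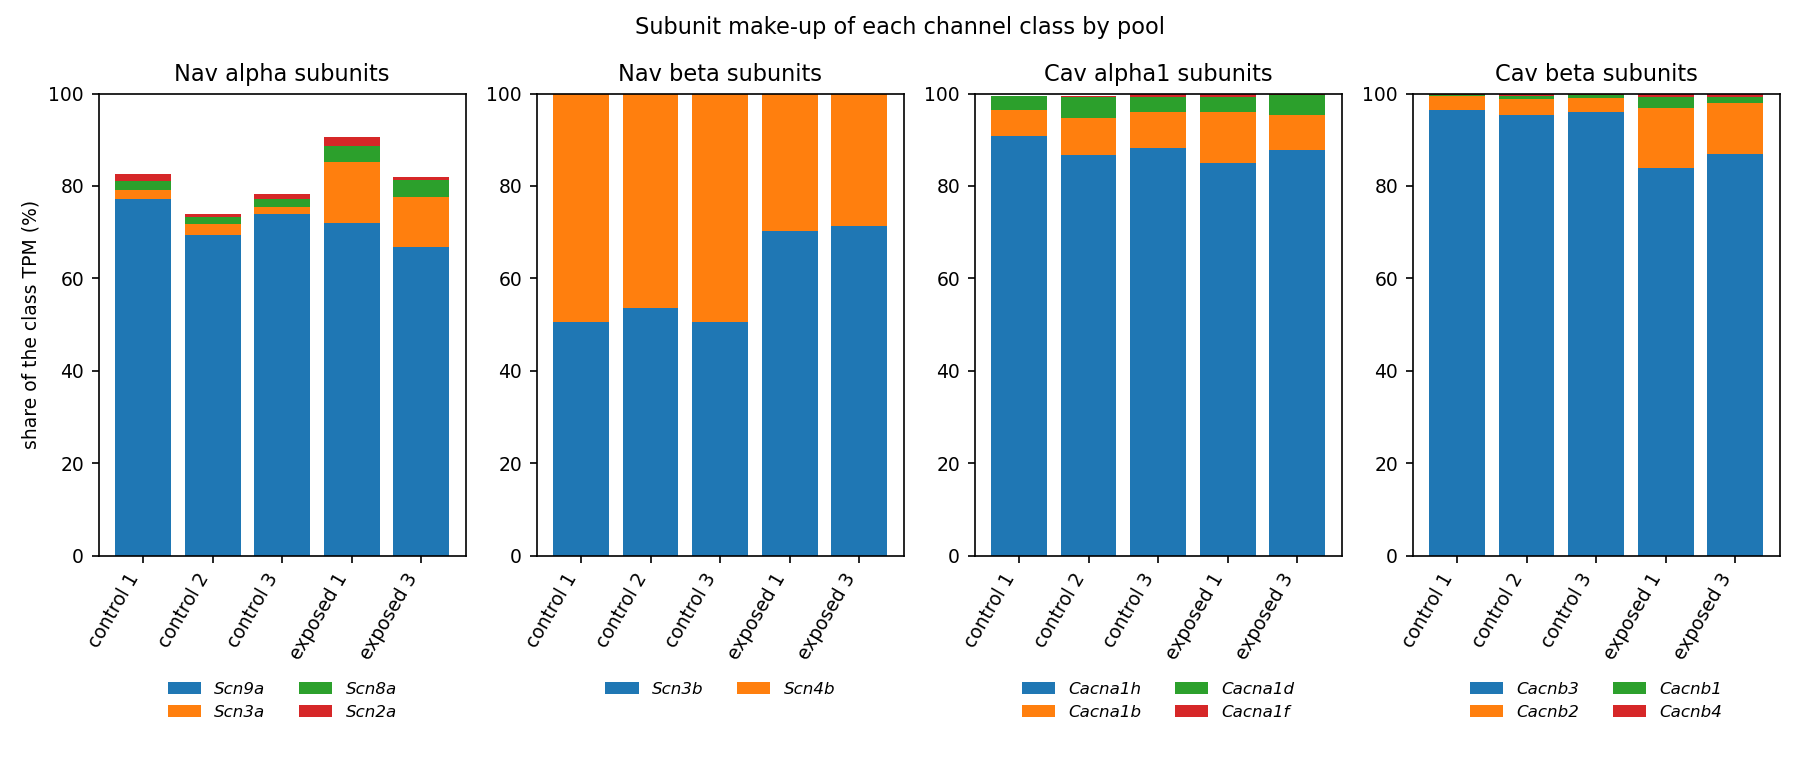
Share of each gene in the summed TPM of its class (y axis, percent) for each of the 5 pools (x axis), with a panel per class; genes under 0.5% in every pool are not drawn, and the Nav alpha bars show *Scn9a*, *Scn3a*, *Scn8a* and *Scn2a* and so end below 100%. *Scn3b* rises from 50.5 to 53.5% of the Nav beta class in control pools to 70.2 and 71.4% in exposed pools, and *Scn3a* from at most 2.37% to 13.3 and 10.9% of the Nav alpha class.

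**Figure D4:**
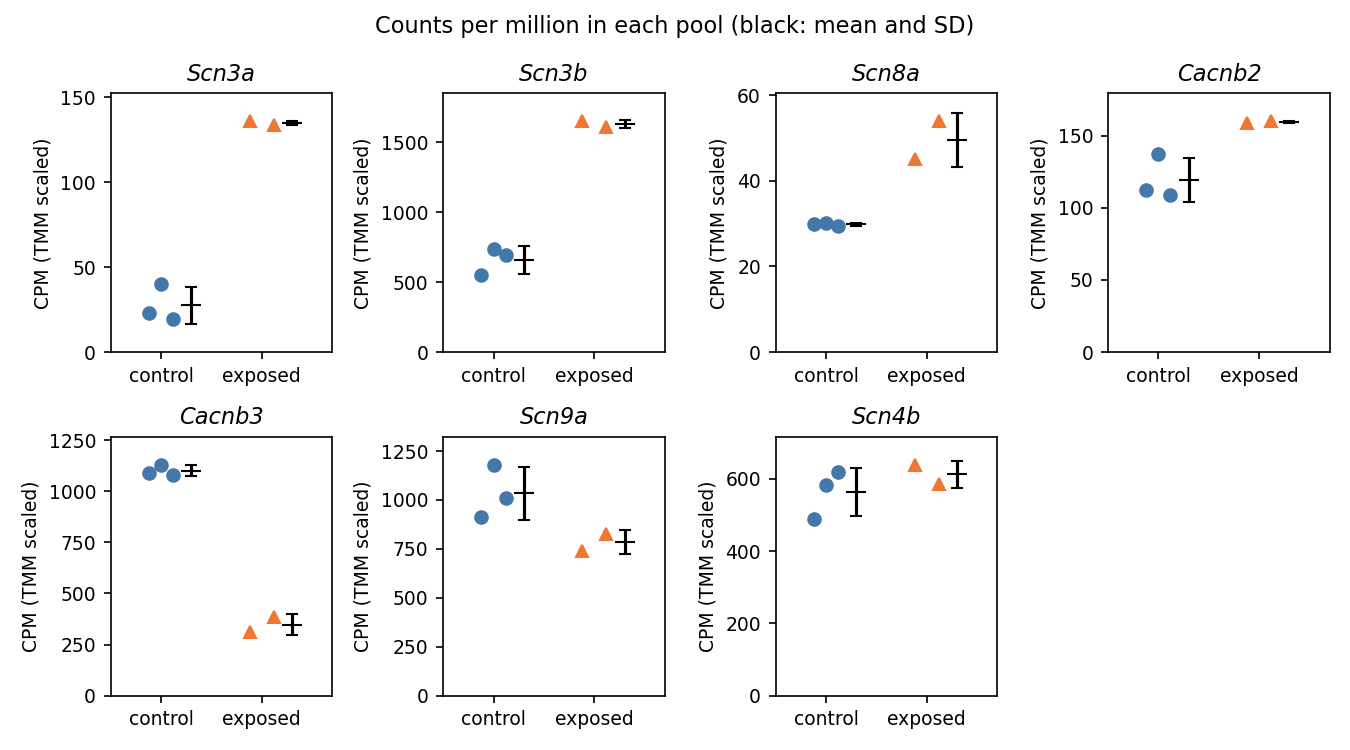
CPM with TMM scaling of 7 channel genes in each pool (circles, 3 control pools; triangles, 2 exposed pools; black, mean and SD), each panel with its own axis from 0. The pools of *Scn3a*, *Scn3b*, *Scn8a*, *Cacnb2*, *Cacnb3* and *Scn9a* do not overlap between conditions, and those of *Scn4b* do.

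Several of these genes are neighbours in the genome. On chromosome 2 the genes *Scn3a*, *Scn2a*, *Scn1a*, *Scn9a* and *Scn7a* follow each other with gaps of 53.1, 503, 39.2 and 38.5 kb. Within this cluster *Scn3a* rose, the estimates of *Scn2a* and *Scn9a* were below 0 and not called, and *Scn1a* and *Scn7a* were under the threshold. On chromosome 9 *Scn10a* and *Scn11a*, 34.4 kb apart, were both under the threshold. *Scn4b* lies 8.32 kb from *Scn2b*, which had at most 27 counts, while *Scn3b* stands elsewhere on the chromosome. Reads were counted without strand, and reads on exon bases shared by several genes were left out, so such genes are undercounted. Among tested channel genes this concerns *Cacna1d*, which shares 589 bases with *Chdh*, *Cacnb4*, which shares 1433 bases with A430018G15Rik, and *Cacna1h*, *Cacnb1*, *Cacnb2* and *Scn9a* with non-coding or scarcely counted genes. None of the 3 called genes shares exon bases with another gene.

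Markers of the cells in the pools moved beside these genes. Of the 8 mature OSN markers 3 were called lower, the channel subunits *Cnga2* and *Cnga4* and the receptor chaperone *Rtp1*. The others, *Omp*, *Adcy3*, *Gnal*, *Ano2* and *Stoml3*, were not called. Their log2 fold changes were -0.32, -0.59, -0.17, -0.01 and 0.09. The summed level of the list did not overlap between conditions. Of the immature OSN markers 3 of 4 were tested and *Gap43*, a growth cone protein, was called higher, and the lowest exposed pool of the summed level lay just above the highest control pool. *Crmp1* of the same list had 147, 160 and 162 CPM in control pools and 110 and 105 CPM in exposed pools, and was not called (log2 fold change -0.54, edgeR, adjusted p = 0.138). Of the 7 myeloid markers, 4 were tested and *Fcer1g* was called higher, and *Ptprc* had 0, 54 and 1 counts in the controls and 542 and 517 after exposure. *Tyrobp* and *Lyz2* were not called, with log2 fold changes of 1.98 and 0.26, and *C1qa*, *C1qb* and *Csf1r* were under the threshold. The mean of *C1qb* was 4.86-fold lower in exposed pools, but the pools overlapped. It had 602, 76 and 0 counts in the controls and 71 and 19 after exposure. For *C1qa* the means differed by 1.03-fold. The summed myeloid level overlapped between conditions. The red blood cell gene *Hbb-bs* was not called (log2 fold change -3.86, edgeR, adjusted p = 0.206), and its exposed pools overlapped with control pool 3. The part of these markers in the changes of *Scn3a*, *Scn3b* and *Cacnb3* was not tested. Basal cell markers summed to at most 3.12 CPM in any pool, below the level of every tested channel gene in the mean of either condition.

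Partners and regulators of the channels were examined as a list of 39 genes, of which 38 were found and 17 tested. Only 1 was called (5.88%), against 5.27% of all features. *Fgf12*, which encodes an intracellular fibroblast growth factor homologous factor that binds the tail of Nav alpha subunits, had 20870, 24625 and 21568 counts in the controls and 34038 and 29841 after exposure. Its pools did not overlap, and the log2 fold change was 0.65 (SE 0.12, edgeR, adjusted p = 0.0449). The call was lost without control pool 2, exposed pool 1 or exposed pool 3 (edgeR, adjusted p = 0.121, 0.329 and 0.125), with ERCC scaling and when tested against the fold change threshold. The 3 genes of the list with the highest mean CPM that were not called, an order that is not corrected for length, were *Ank2* (log2 fold change -0.17), *Dpysl2* (-0.20) and *Ank3* (0.17), with edgeR adjusted p of 0.660, 0.648 and 0.736. *Ank3* encodes ankyrin-G, which anchors sodium channels at the axon initial segment. Pools did not overlap for 6 of the 17 (35.3%), against 40.0% of all features. The median log2 fold change of the 17 was 0.22, against -0.03 over all features. Some of the 17 reached the count threshold only through the exposed pools.

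Some regulators below the call are given after their values were seen. *Nedd4l*, a ubiquitin ligase that removes sodium channels from the membrane, had 1412, 1670 and 1006 counts in the controls and 499 and 537 after exposure (log2 fold change -1.26, SE 0.34, edgeR, adjusted p = 0.117). The exposed pools lay below every control pool. *Cbarp* and *Rem2*, which encode inhibitors of voltage-gated calcium channels that act through the beta subunit, had 78, 281 and 267 counts and then 590 and 451 counts, and 0, 94 and 112 counts and then 622 and 240 counts. Both reached the count threshold only through the exposed pools, so a higher level there was partly fixed by the filter. Neither was called (edgeR, adjusted p = 0.245 and 0.368). The more abundant *Gem* and *Nedd4* of the same list overlapped between conditions and were not called. Their log2 fold changes were 0.215 and 0.219 (edgeR, adjusted p = 0.762 and 0.722). The leak channel gene *Nalcn* had no count in any library.

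**Figure D5:**
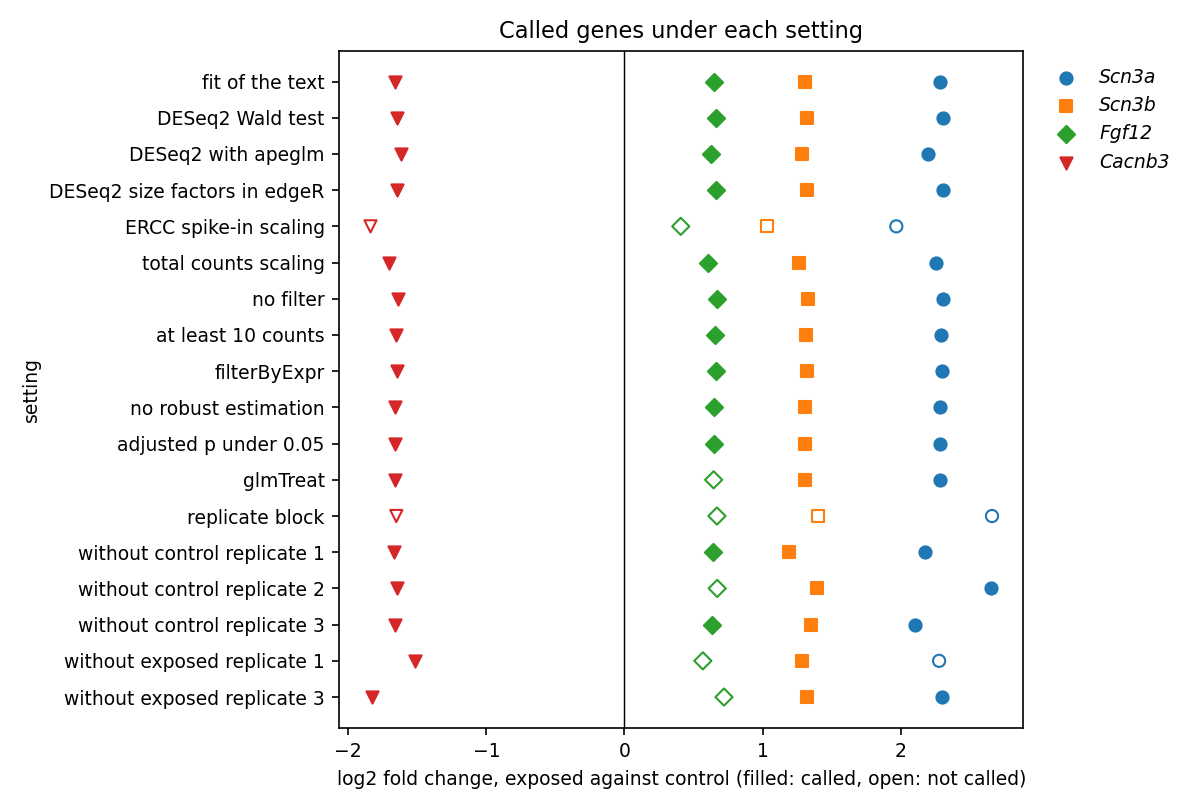
Log2 fold change of *Scn3a*, *Scn3b*, *Fgf12* and *Cacnb3* (x axis) under the fit of the text and 17 alternative settings (y axis), with filled symbols where the gene is called and open symbols where it is not. The estimates of *Cacnb3* stay between -1.84 and -1.52, those of *Scn3b* between 1.03 and 1.40 and those of *Scn3a* between 1.97 and 2.66, and open symbols for all 4 genes occur with ERCC scaling and with the replicate block.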

How the data were processed

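RNA of FACS-sorted *Olfr151*-positive OSNs was analysed in 3 control pools and 2 exposed pools, grouped by their labels. The authors mapped single reads of 50 bases with STAR 2.7.0a on GRCm38 and deposited raw counts per gene from featureCounts 1.6.3 (Ensembl release 99), one table per pool. Per the file headers, exons were summed without strand, and reads on several places or genes were not counted, which lowers near-identical or overlapping genes. DESeq2 1.30.1 in R 4.0.3 is named in the submitters' processing notes for their own test.

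Here, counts were tested in R 4.3.3 with edgeR 4.0.16 (TMM, robust glmQLFit, glmQLFTest, condition only), on features that reached 142 counts in all libraries of either condition, a threshold placed at the minimum between the modes of the log2 count distribution. The 92 spike-ins were kept out of the fit. Of 55411 genes, 267 could not be named through GENCODE vM21. TPM used the exon lengths of the tables. Summaries used Python 3.11.15 with pandas 2.3.3. The scripts were tested on simulated counts. Alternatives were DESeq2 1.42.0 with and without apeglm 1.24.0, its size factors, ERCC or total count scaling, 3 other filters, no robust estimation, an adjusted p under 0.05, glmTreat, a replicate block, and each library left out.

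Channel genes tested are named with values and those called with every count, and so are the called partners and the 3 other partners with the highest mean CPM. The members, the list and the tests were chosen with earlier results of these data known. Intervals and floors cover counting error only, and with 2 exposed pools the spread of that condition rests on 1 difference per gene. Exposed pool 2 was not analysed here, and 2 channel genes are counted but not reported here.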

Additional observations from a re-analysis of the deposited data

How the results depend on the processing

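*Scn3a* and *Scn3b* were called higher and *Cacnb3* lower in every setting except 3, and DESeq2 with and without apeglm also called *Scn8a* higher. With ERCC scaling 0 were higher and 0 lower, with the replicate block 0 and 0, and leaving out each library in turn gave 1 to 2 higher and 1 lower, with *Scn3a* lost without exposed pool 1. For the partners, 1 was called higher and 0 lower. With ERCC scaling, glmTreat or the replicate block 0 were higher, and with a filter of at least 10 counts 2 were. The gene added there was *Stac*, with 0, 0 and 0 counts in the controls and 142 and 40 after exposure. *Stac* passed that filter only through the exposed pools, so its direction was partly fixed by the filter. DESeq2's Wald test and its apeglm version each called 1 lower (*Nedd4l*). Leaving out a library gave 0 to 1 higher and 0 to 2 lower, the 2 without control pool 3.

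Pool numbers 1 and 3 occur in both conditions, and the labels give 4 mice per condition on each day, but they do not tie a number to a day. The deviations of same-numbered pools from their group mean correlated at 0.03 and -0.07. With 2 exposed pools these deviations mirror each other, so the correlations are not separate checks and cannot decide on a pairing. With 2 such pairs the numbers were not taken as a pairing. With the number as a block, *Scn3a* had a log2 fold change of 2.66 (SE 0.229, edgeR, adjusted p = 0.126). Those of *Scn3b* and *Cacnb3* were 1.40 (SE 0.14, edgeR, adjusted p = 0.129) and -1.65 (SE 0.135, edgeR, adjusted p = 0.124). Over all features 11 were called higher and 1 lower. The block leaves little from which to estimate the spread. Control pool 2, without an exposed partner, does not enter the fold change.

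Of the genes named with values and not called, the sign of the log2 fold change was reversed with ERCC scaling for *Scn4b* (-0.15), *Cacna1b* (-0.36), *Cacnb1* (-0.31) and *Ank3* (-0.12), and with the block for *Cacna1d* (0.07). Leaving out each library in turn moved *Scn2a* from -0.95 to 0.35 (reversed without exposed pool 3), *Cacna1b* from -0.32 to 0.38 (below 0 without exposed pool 1, and -0.20 without control pool 1), *Cacna1d* from -0.46 to 0.05 (reversed without control pool 2), *Cacna2d1* from -0.38 to 0.62 (reversed without exposed pool 3), *Cacnb1* from -0.23 to 0.44 (reversed without control pool 1, and -0.14 without exposed pool 1) and *Ank3* from -0.01 to 0.30 (reversed without control pool 1). The log2 ratio of the summed alpha2delta level moved from -0.61 to 0.48, below 0 without exposed pool 3. The summed Cav beta log2 ratio of -1.66 was -1.24 in CPM and -1.85 to -1.50 without an exposed pool. The causes were not tested.

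Over all features, 343 were called higher and 186 lower. These counts were 725 and 768 with DESeq2's Wald test, 671 and 715 with apeglm, 93 and 48 with ERCC scaling, 162 and 74 with filterByExpr, 190 and 91 at an adjusted p under 0.05, 146 and 55 with glmTreat, and 71 to 346 and 19 to 408 without 1 library. With ERCC scaling the median log2 fold change of all features was -0.23, and relative to the median of all features *Scn3a* was at 2.20 and *Scn3b* at 1.26. Low counts limit what can be seen for 25 of the 40 channel genes.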
